A study of Mus musculus with 10 samples.

Results

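The circadian clock genes described here are Per1, Per2, Per3, Cry1, Cry2, Arntl, Clock, Nr1d1, Nr1d2 and Dbp, and the data are ERα ChIP-seq peaks of the mouse hypothalamus. ERα is the estrogen receptor encoded by Esr1, and ChIP-seq pulls down the DNA that the receptor occupies and sequences it, so that a peak is called where reads pile up above the local background. The genes were given as a list, and their regions were found by position alone, as every peak in the gene body or within 50 kb of a RefSeq start site of a member gene. Overlapping peaks (1 bp or more) of the 8 libraries were joined to regions, and 10 of the 8072 regions lay in these windows. They fell to 6 of the 10 genes. No region lay in the windows of Per3, Cry1, Clock or Nr1d1.

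The ChIP-seq libraries were from the arcuate nucleus (4 libraries) and the anteroventral periventricular nucleus, AVPV (4 libraries), of ovariectomised female C57BL/6 mice, which by the study's general methods were young adults. All groups carried an estradiol implant (0.1 mg/mL in a tube of 2 cm) and received estradiol benzoate (0.05 mg/kg) in the morning, and tissue was taken 28 h after that injection. The chromatin was pooled and the antibody was sc-543. No ChIP-seq library of vehicle-injected or intact mice was analysed here, and every library came from the same time of day, so the peaks can show neither a response to estradiol nor a rhythm.

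The circadian clock is a transcriptional feedback loop that runs in most cells, neurons of the hypothalamus included. CLOCK and BMAL1, the protein of Arntl, form a heterodimer that activates genes through E-boxes, among them the Per and Cry genes, whose proteins return to the nucleus and repress that heterodimer. A second loop holds NR1D1 and NR1D2 (REV-ERBα and REV-ERBβ), nuclear receptors that repress Arntl through ROR elements, and DBP is an output factor that binds D-boxes. In female rodents the AVPV takes part in the surge of gonadotrophins, which is timed to a part of the day, and the arcuate nucleus in pulsatile secretion and negative feedback.

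Only 4 of the 10 regions had peaks in at least 4 of the 8 libraries. These were a site in an intron of Arntl, the Cry2 promoter, a site 32.2 kb upstream of Nr1d2 and a site 4.3 kb upstream of Dbp. Their genomic sequence (RefSeq GRCm38.p6, the build of mm10, forward strand, 201 bp around the summit of the strongest peak) is shown for the windows that hold no exon, together with a weaker Arntl site that had the closest match to an estrogen response element. Capitals mark the 15 bases closest to the palindrome AGGTCANNNTGACCT, the consensus of that element, or, for Dbp, the arms of an inverted repeat. Every window has such a closest stretch, so capitals alone do not mark a response element.
Arntl intron, chr7:113267368-113267568: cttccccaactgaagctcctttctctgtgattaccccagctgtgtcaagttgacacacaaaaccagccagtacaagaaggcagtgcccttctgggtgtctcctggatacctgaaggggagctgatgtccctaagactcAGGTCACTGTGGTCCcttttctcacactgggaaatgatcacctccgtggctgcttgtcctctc
Arntl intron, weaker site, chr7:113263224-113263424: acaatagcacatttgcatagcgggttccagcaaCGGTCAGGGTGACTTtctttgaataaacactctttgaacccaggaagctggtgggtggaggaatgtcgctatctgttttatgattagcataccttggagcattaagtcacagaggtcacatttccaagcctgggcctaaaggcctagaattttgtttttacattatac
Cry2 promoter, chr2:92434272-92434472: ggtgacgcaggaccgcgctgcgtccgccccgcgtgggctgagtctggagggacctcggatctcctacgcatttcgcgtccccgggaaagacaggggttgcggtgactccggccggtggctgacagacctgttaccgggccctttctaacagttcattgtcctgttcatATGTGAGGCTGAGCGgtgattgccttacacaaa
Dbp upstream site, chr7:45700839-45701039: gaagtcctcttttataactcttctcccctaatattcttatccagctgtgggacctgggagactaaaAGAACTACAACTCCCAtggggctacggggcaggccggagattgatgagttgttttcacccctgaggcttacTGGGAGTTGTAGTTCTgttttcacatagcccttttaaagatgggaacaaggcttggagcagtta

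Peak strength is given as the fold enrichment over the local background that the peak caller wrote, and as its percentile within the list of the same library, because lists differ in background. They held 3251 to 4079 peaks in the arcuate nucleus and 2367 to 3347 in the AVPV, 25982 in all, and fewer listed peaks limit what a library can show. A site without a listed peak is not shown to be unbound. No 2 libraries held an identical peak, but whether each was made from its own pool of chromatin is not given in the sources used here, so the spread and the tests describe libraries rather than mice. Greb1, a classical target of ERα, served as positive control, and its strongest region stood at percentiles of 97.1 to 99.4 in the 8 libraries. A peak list holds no marker gene expression, so the dissected tissue was not checked against markers.

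A peak of any library lay in the window of 6 of the 10 clock genes, beside 42.8% of 21000 protein-coding genes. A site, meaning a region with peaks in at least 2 of the 4 libraries of a nucleus, was found for 4 of the 10, beside 29.0% of those genes. These were Arntl, Cry2, Nr1d2 and Dbp. The clock genes had 27 peaks in all, 11 in the arcuate nucleus and 16 in the AVPV. Their percentiles ran from 6.83 to 86.3 with a median of 45.2, and 3 peaks reached percentile 75.

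**Figure D1:**
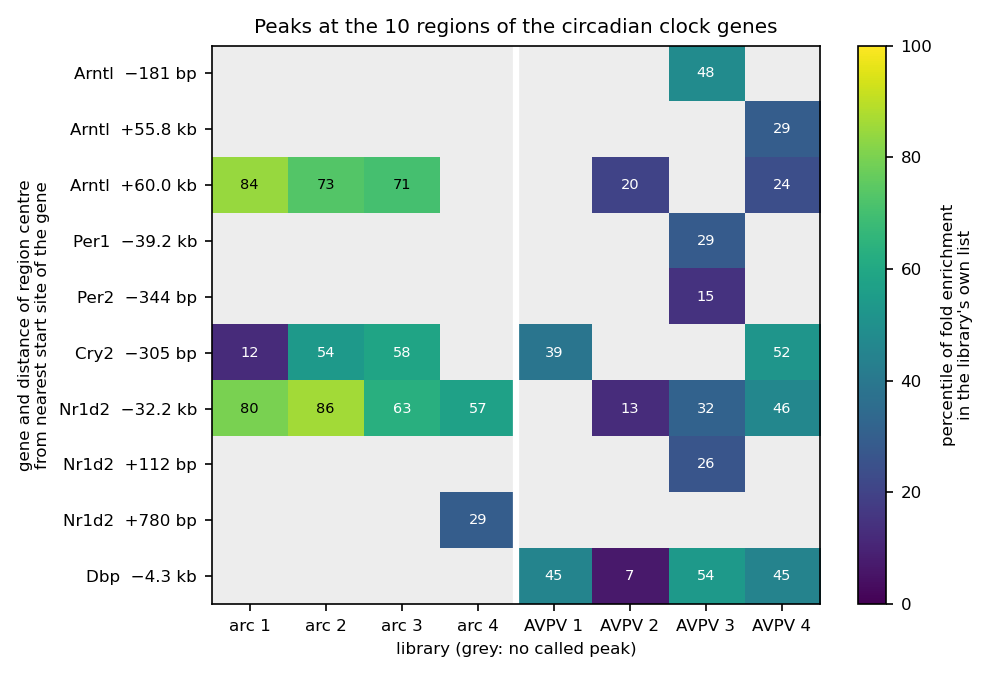
Percentile of fold enrichment within the library's own list (colour and number, 0 to 100) at the 10 regions of the clock genes (rows, with the distance of the region centre from the nearest start site) in the 8 libraries (columns). The Arntl site at 60.0 kb and the Nr1d2 site at 32.2 kb ranked higher in every arcuate library with a peak than in any AVPV library, and the Dbp site had peaks in the 4 AVPV libraries alone.

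Of the 2 activators of the loop, Arntl had 3 regions and Clock none. The main Arntl region (chr7:113267303-113267645, 343 bp) lay in an intron, 60.0 kb downstream of the start site. Its fold enrichment was 10.5, 7.90 and 7.93 in arcuate libraries 1, 2 and 3, at percentiles of 84.4, 73.4 and 70.5. In the AVPV it was 4.86 in library 2 and 4.94 in library 4, at percentiles of 20.2 and 24.0. Arcuate library 4 and AVPV libraries 1 and 3 had no peak there. The arcuate peaks thus all ranked above the AVPV peaks. Every arcuate peak ranked above every AVPV peak at 2 of the 3 clock sites called in both nuclei, which is given beside 15.0% of the 2140 such sites of the series. The reverse order was seen at 0 of 3, beside 8.32%. The difference was not tested, since libraries without a peak have no percentile. With only peaks above a fold of 5, the site had 3 arcuate and 0 AVPV libraries (exact Fisher p = 0.143). That cut lies just above both AVPV values. With only peaks of a −log10 q of at least 5, the site had 3 arcuate and 2 AVPV libraries. The 5 summits lay within 63 bp of each other.

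The weaker Arntl region (chr7:113263185-113263388) also lay in an intron, 55.8 kb from the start site, and had a peak only in AVPV library 4, with a fold of 5.19 at percentile 29.5. The third lay in the Arntl promoter (chr7:113207183-113207385), centred 181 bp upstream of the start site, and had a peak only in AVPV library 3, with a fold of 5.95 at percentile 48.4. Clock had no region within its gene body of 94.9 kb or its window, and the nearest lay 284 kb away.

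**Figure D2:**
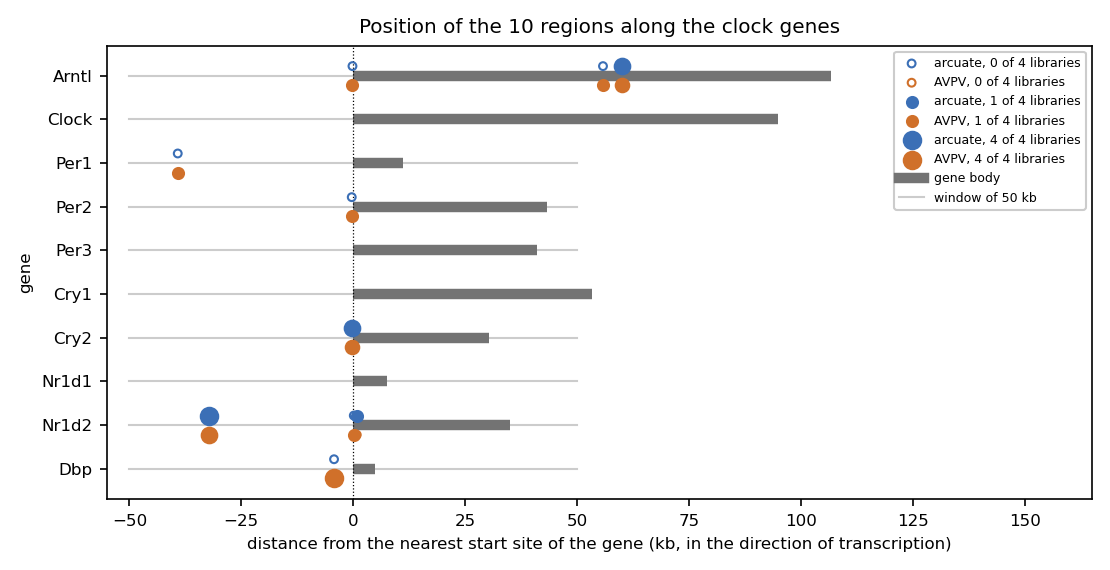
Distance of each region centre from the nearest start site of its gene (kb, in the direction of transcription) for the 10 clock genes, with arcuate libraries above the line in blue and AVPV libraries below it in orange, larger for more libraries and open for 0. Cry2 has its region at the promoter, while the sites of Arntl, Nr1d2 and Dbp lie 60.0 kb downstream, 32.2 kb upstream and 4.3 kb upstream of their start sites.

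Among the repressors of the PER and CRY families, only Cry2 had a site. Its region (chr2:92434215-92434533, 319 bp) lay in the promoter, centred 305 bp upstream of the start site. The fold enrichment was 4.32, 6.19 and 6.84 in arcuate libraries 1, 2 and 3, at percentiles of 12.1, 54.2 and 58.5, and 5.73 and 6.49 in AVPV libraries 1 and 4, at percentiles of 38.7 and 52.1. The nuclei overlapped, with the AVPV values inside the arcuate range. The 5 summits lay within 34 bp of each other. Its family member Cry1 had no region, and the nearest lay 268 kb away.

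Per1 and Per2 had a region each, and each had a peak only in AVPV library 3. The Per2 peak (chr1:91459557-91459788) was in the promoter, centred 344 bp upstream of the start site, with a fold of 4.38 at percentile 14.7. The Per1 peak (chr11:69059594-69059888) was 39.2 kb upstream of Per1 and in the promoter of Borcs6, with a fold of 5.01 at percentile 28.6. At Per3 no region lay within the window, and the nearest, intergenic and 79.2 kb away, had peaks in 3 arcuate and 4 AVPV libraries at percentiles of 18.1 to 67.1.

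Nr1d2, the repressor of the second loop, had 3 regions, while its paralogue Nr1d1 had none and its nearest region, with a peak in a single AVPV library, lay 96.6 kb away. The widest was found in the most libraries of any clock region. It spanned 526 bp (chr14:18271001-18271526), lay 32.2 kb upstream of Nr1d2 and covered the promoters of the divergent pair Rpl15, which encodes a ribosomal protein, and Nkiras1. The fold enrichment was 9.44, 10.8, 7.20 and 6.22 in arcuate libraries 1 to 4, at percentiles of 79.9, 86.3, 63.1 and 57.3. It was 4.46, 5.07 and 6.0 in AVPV libraries 2, 3 and 4, at percentiles of 12.7, 31.5 and 46.2, and AVPV library 1 had no peak. The lowest arcuate percentile was above the highest of the AVPV. The other regions of Nr1d2 lay at its start site. An intronic peak 780 bp downstream (chr14:18238232-18238420) was seen in arcuate library 4 alone, with a fold of 5.05 at percentile 29.4. A peak in the 5′ UTR exon, 112 bp downstream (chr14:18238902-18239087), was seen in AVPV library 3 alone, with a fold of 4.96 at percentile 26.3.

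Dbp, the output factor, had the only site of a single nucleus when all 8 libraries were used. The region (chr7:45700756-45701146, 391 bp) lay 4.3 kb upstream of Dbp in an intron of Car11, a carbonic anhydrase-related gene, and its centre was 984 bp from the Car11 start site. The fold enrichment was 6.01, 4.05, 6.26 and 5.96 in AVPV libraries 1 to 4, at percentiles of 45.2, 6.83, 53.8 and 44.7. No arcuate library had a peak there. The 4 summits lay within 90 bp of each other. Peaks in 4 AVPV and 0 arcuate libraries were found at 1 of the 10 clock regions, beside 0.818% of all regions, and the reverse at 0 of 10, beside 2.13%. By Fisher's exact test over libraries, two-sided, the difference had p = 0.0286, the smallest that 4 against 4 allows, and an adjusted p = 0.969 over the 8072 regions. None of the 8072 regions passed after Benjamini-Hochberg adjustment, while 238 had an unadjusted p under 0.05. With no p below 0.0286, most regions would have had to reach it for any to pass. The adjustment therefore cannot judge a single site. With only peaks above a fold of 5, the site kept 3 of the 4 AVPV libraries and the exact p was 0.143.

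Over the 4 clock sites, 3 were called in both nuclei, 1 in the AVPV only and 0 in the arcuate only. Without AVPV library 4 the counts were 1, 1 and 2, and without AVPV library 1 or 2 they were 2, 1 and 1. Over the 4388 sites of the series the shares were 48.8%, 16.6% and 34.6%. No clock region had a peak in all 8 libraries, beside 13.5% of all regions, so the planned comparison of percentiles between the nuclei over such regions gave no value. A peak in a single library was seen at 6 of the 10, beside 41.5% of all regions. Of these 6, AVPV library 3 held 4, at Per1, Per2, the Arntl promoter and the Nr1d2 5′ UTR, AVPV library 4 held 1 and arcuate library 4 held 1. Of the 3350 single-library regions of the series, these libraries held 495, 304 and 871. The percentiles of the 6 peaks ran from 14.7 to 48.4. AVPV library 3 also stood apart over the series, since 42.6% of its 495 single-library regions were promoters, against 8.22 to 28.2% in the other 7 libraries. Its part in the single-library clock regions was not tested.

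**Figure D3:**
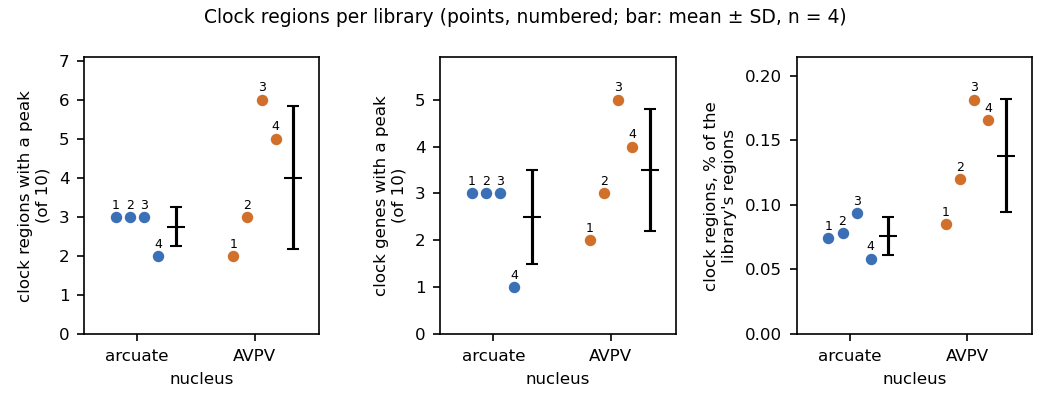
Number of clock regions with a peak (left), number of clock genes with a peak (middle) and clock regions as a percentage of all regions of the library (right) in each library (numbered points, n = 4 for each nucleus) with the mean and SD beside them. The groups overlap in all panels, and AVPV library 3 is the highest in each.

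The arcuate libraries had peaks at 3, 3, 3 and 2 clock regions (2.75 ± 0.5, SD, n = 4) and the AVPV libraries at 2, 3, 6 and 5 (4 ± 1.83, SD, n = 4). In clock genes with a peak, the arcuate libraries had 3, 3, 3 and 1 and the AVPV libraries 2, 3, 5 and 4. As a percentage of all regions of the library the values were 0.0742, 0.0782, 0.0935 and 0.0583 in the arcuate nucleus and 0.0853, 0.120, 0.181 and 0.165 in the AVPV. The nuclei overlapped in each of the 3 measures. Without AVPV library 3 only 6 clock regions in 4 genes remained, and the AVPV mean was 3.33 regions per library.

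Outside the gene bodies, the regions just inside the limit of 50 kb were those 32.2 kb from Nr1d2 and 39.2 kb from Per1, and the nearest beyond it were 79.2 kb from Per3, 80.3 kb from Dbp and 81.1 kb from Per2. The last of these, in the promoter of Asb1, had peaks in 3 arcuate and 2 AVPV libraries. Position alone ties a region to a gene here. The upstream regions of Nr1d2, Per1 and Dbp lay in the promoters or introns of Rpl15, Borcs6 and Car11, and which gene each serves was not tested.

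The windows of 201 bp around the summits were searched on both strands for elements with a known binding factor. The estrogen response element AGGTCANNNTGACCT, with at most 2 mismatches among its 12 fixed bases, was found at 1 of the 10 clock regions, beside 28.5% of all regions. The share was 3.18% in promoter regions of the series and 37.1% in the others. The match was cggtcagggtgactt in the weaker Arntl site (chr7:113263257-113263271), 60 bp from the summit. The main Arntl site had AGGTCACTGTGGTCC with 3 mismatches, 45 bp from the summit. Cry2 and the Nr1d2 upstream site had 4 mismatches at best, and Dbp had 5. Of all regions, 46.7% held a match with at most 3 mismatches, 70.5% with at most 4 and 95.7% with at most 5. In promoter regions these shares were 10.8%, 40.9% and 91.0%.

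**Figure D4:**
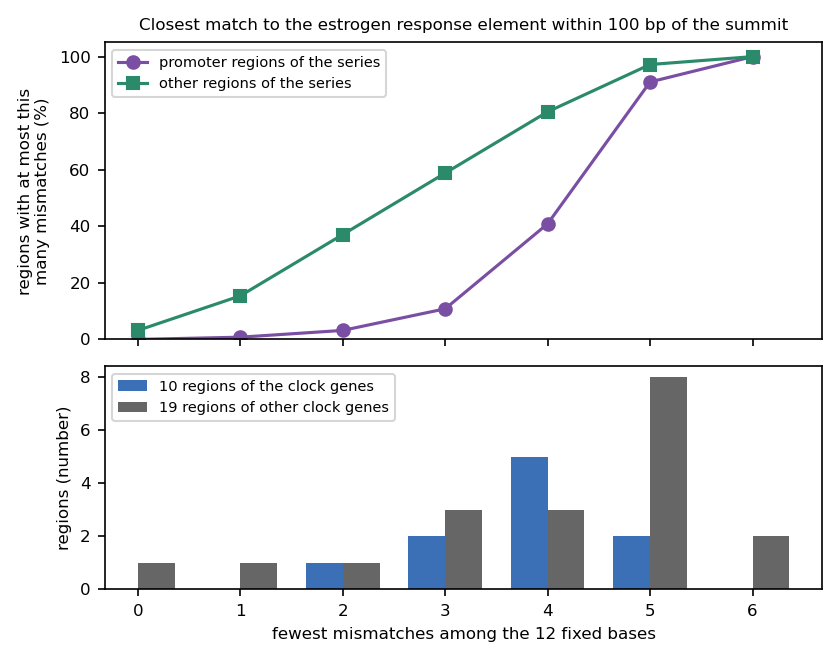
Top, percentage of promoter regions (2043) and other regions (6029) of the series whose window holds a sequence with at most the given number of mismatches to the estrogen response element. Bottom, number of regions of the clock genes (10) and of other clock genes (19) by their fewest mismatches, where the clock genes lie at 2 to 5.

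The single element AGGTCA, which many nuclear receptors bind, was found at 5 of the 10 regions, beside 33.8% of all regions. These were both intronic Arntl regions and all 3 Nr1d2 regions. It stood 41 bp from the summit in the main Arntl site and 23 bp in the Nr1d2 upstream site, and it was not matched in the windows of Dbp or Cry2. The elements of the clock factors were not matched in any of the 10 windows. These were the E-box CACGTG, beside 3.39% of all regions, the D-box TTATGTAA, beside 0.681%, and the ROR element AANTAGGTCA, beside 0.483%, which contains the single element. The cAMP response element TGACGTCA, beside 0.421%, and the AP-1 site TGANTCA, beside 6.23%, were likewise not matched. These matches describe letters only and show no binding by a factor.

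The Dbp window held an inverted repeat with arms of 16 bp, AGAACTACAACTCCCA (chr7:45700905-45700920) and TGGGAGTTGTAGTTCT (chr7:45700976-45700991), 55 bp apart and on both sides of the summit. An inverted repeat of that length was found in 5 of 8072 windows (0.0619%), with Dbp among them. The length counted is that of the Dbp repeat itself, so the share does not measure how rare this repeat is. The arms contain ACAANTCCC, on opposite strands, letters at the core of the element of ZNF143, a zinc finger factor of promoters. This search was added after the sequence had been seen. A match was found in 2.43% of all regions, 5.73% of promoter regions and 1.31% of the others, and 15 regions (0.186%) held at least 2 matches. The 2 matches at Dbp lie in the arms of the repeat, so they are not a separate trait. Of 19 regions of other clock genes, 2 held a match, at Fbxw11 and Btrc.

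In the RefSeq promoter table (GRCm38.p6, 250 bases before to 50 after the start), 9 of the 10 clock genes had an entry. Per2, Cry2 and Dbp had no match to any element, and the gene without an entry is among them. No match in this short window does not show that a gene lacks an element. The E-box was found at Per1 and Cry1, beside 9.16% of 16853 genes, and the D-box at Per3, beside 1.03%. The ROR element was found at Arntl alone among the clock genes, beside 0.172%, as aagtaggtca (chr7:113207538-113207547), centred 32 bp after the start site of that table. This start site differs from the start site used for the distance of the promoter peak. The ROR element lay outside the AVPV library 3 peak at this promoter. The single element AGGTCA was found at Per1, Arntl, Clock and Nr1d2, beside 16.5%, and the estrogen response element at none of the 9, beside 1.42%. The ZNF143 letters ACAANTCCC were found at Nr1d1, beside 2.93%.

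A further 18 clock genes, the modifiers and relatives of the loop, were examined in the same way. They had 19 regions in 9 of the 18 genes, beside 42.8% of 21000 protein-coding genes with a region. The arcuate libraries had peaks at 10, 9, 10 and 7 of these regions and the AVPV libraries at 5, 8, 9 and 6. These counts were not scaled to list length, which was 3251 to 4079 peaks in the arcuate nucleus and 2367 to 3347 in the AVPV. Npas2, Arntl2, Rorb, Hlf, Csnk1e, Fbxl21 and Timeless were among those with none.

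**Figure D5:**
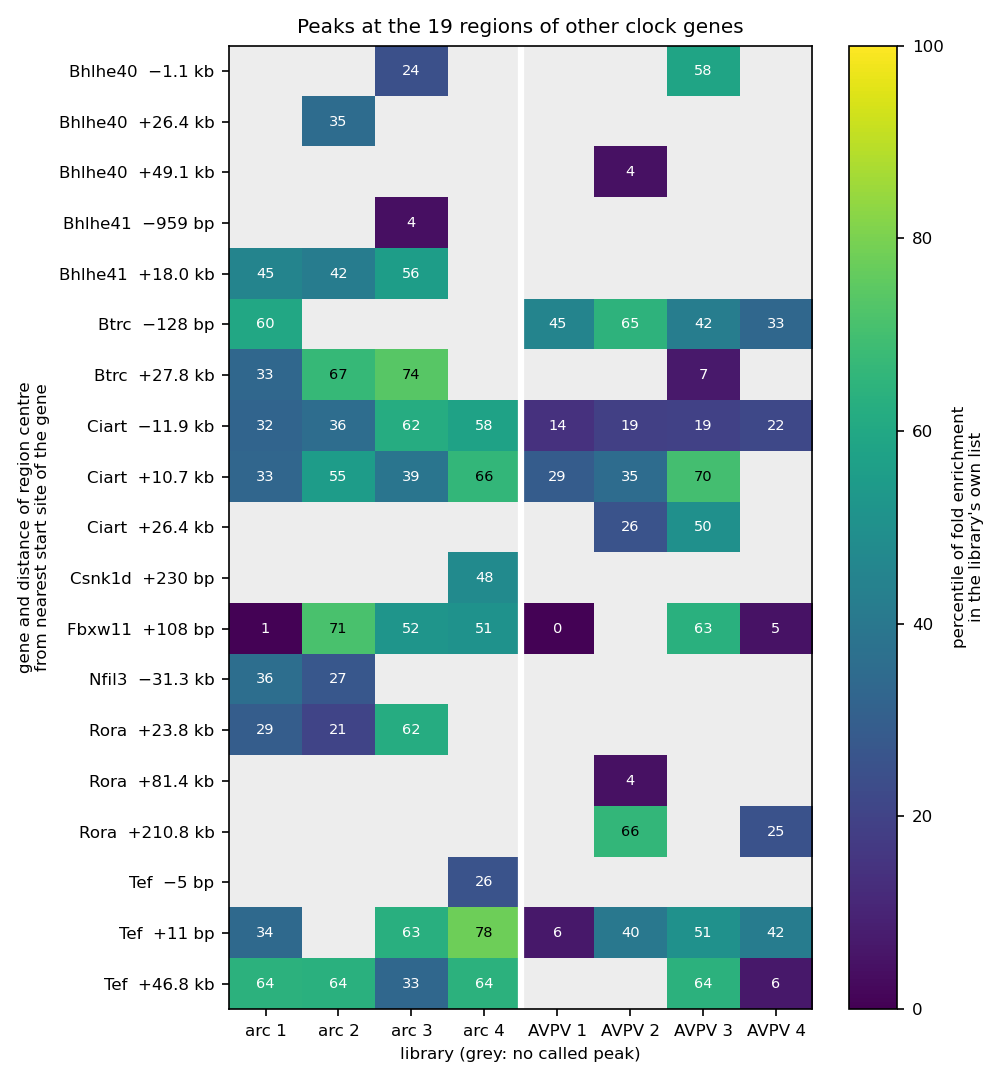
Percentile of fold enrichment within the library's own list (colour and number, 0 to 100) at the 19 regions of other clock genes (rows, with the distance from the nearest start site) in the 8 libraries (columns), grey where no peak was listed. The region 11.9 kb upstream of Ciart is the only one with peaks in all 8 libraries, and regions of Bhlhe41 and Rora had peaks in 3 arcuate libraries alone. Of the sites of the series, 34.6% were called in the arcuate only and 16.6% in the AVPV only. Those classes also hold sites with a peak in a single library of the other nucleus.

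Ciart, which encodes a repressor of the CLOCK and BMAL1 heterodimer, had a region 11.9 kb upstream with peaks in all 8 libraries. It lay in a 5′ UTR exon of Aph1a, at percentiles of 32.3, 35.7, 62.1 and 57.7 in the arcuate nucleus and 14.4, 18.9, 19.3 and 21.6 in the AVPV. The arcuate libraries were all above the AVPV libraries there, as they were at 14.2% of the 1089 regions with 8 libraries. No such region passed an exact permutation test over libraries after Benjamini-Hochberg adjustment (smallest adjusted p = 0.136), while 229 had an unadjusted p under 0.05. There too, most regions would have had to reach the smallest possible p for any to pass, so the adjustment cannot judge a single region. Tef, a relative of Dbp that binds the same D-boxes, had a promoter region with peaks in 3 arcuate and 4 AVPV libraries at percentiles of 6.42 to 77.9. Fbxw11 and Btrc encode the F-box proteins that mark PER proteins for degradation. Fbxw11 had a 5′ UTR region with peaks in 4 arcuate and 3 AVPV libraries at percentiles of 0.444 to 71.3. At the Btrc promoter 1 arcuate and 4 AVPV libraries had a peak (exact Fisher p = 0.143, adjusted p = 1 over all regions), at percentiles of 33.3 to 64.8. An intronic Btrc region 27.8 kb downstream had 3 arcuate libraries and 1 AVPV library.

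Bhlhe41 and Bhlhe40 encode DEC2 and DEC1, repressors that bind E-boxes. Bhlhe41 had an intergenic region 18.0 kb from its start site, on the downstream side, with peaks in arcuate libraries 1, 2 and 3 at percentiles of 45.3, 41.9 and 55.7 and in no AVPV library. It held the response element agggcatcatgacct (chr6:145847367-145847381) with 1 mismatch, 20 bp from the summit, beside 11.7% of all regions with at most 1 mismatch. Outside promoters, 15.4% of regions held the element with at most 1 mismatch. Over the other clock genes, 3 of the 19 regions held the element with at most 2 mismatches, beside the 28.5% of all regions. An intronic region of Rora, an activator at ROR elements, also had peaks in 3 arcuate and 0 AVPV libraries, at percentiles of 20.6 to 62.1. Of the 4388 sites of the series, 34.6% were called in the arcuate only and 16.6% in the AVPV only. Such a call needs at least 2 libraries of a nucleus and at most 1 of the other. It is therefore wider than 3 against 0. These Bhlhe41 and Rora regions each had an exact Fisher p = 0.143 and an adjusted p = 1. Another intronic Rora region had the opposite pattern, with peaks in 0 arcuate and 2 AVPV libraries at percentiles of 25.0 and 66.1. The Bhlhe40 gene, named after its values were seen, had a distal region 26.4 kb downstream of its start site with a response element that matched all 12 fixed bases, aggtcaagttgacct (chr6:108687080-108687094), beside 2.37% of all regions. Outside promoters, the share of regions with such a full match was 3.17%. The Bhlhe40 region had a peak in arcuate library 2 alone, with a fold of 5.15 at percentile 35.4.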

How the data were processed

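ERα ChIP-seq peak lists of 4 arcuate and 4 AVPV libraries were analysed, grouped by the nucleus in the sample labels. The inputs have no peak list and were not analysed here. Per the labels and methods, alignment by the authors was to mm10 with Bowtie2 2.5.0, followed by peak calling for each library with MACS2 2.2.7.1. Each deposited peak has a fold enrichment (a ratio to the local background), the −log10 of its p-value and of its q-value, and a score, which the authors' caller derives from the q-value and which was not used. The largest deposited q-value was 0.0493. Read depth was not analysed here. The number of peaks per list is given instead, and how it relates to depth was not tested. The start sites were those of 45756 curated RefSeq transcripts, with the promoter as the 1 kb before and the 100 bp after each. Percentiles were midranks within a list. The genes and lists were chosen with earlier results of these data known, so no p-value is given for a value summed over the clock genes, and those that had been planned for their regions, genes and shares per library are not reported. Fisher's exact test over libraries was run on all 8072 regions with Benjamini-Hochberg adjustment. All 10 members were named, with their regions of at least 4 of 8 libraries in full, and of the 18 other clock genes the 6 with a region in the most libraries. Some of the 18 are not reported here by name. The programs were tested on simulated data. Alternatives were the window, stricter peaks, lists of equal length, merging by summits, the libraries needed for a site, a replicate block, leaving out each library and, added after seeing the data, predicted transcripts. Sequences were read with samtools 1.23.1 and pysam 0.24.0, and values were computed and drawn in Python 3.11.15 with scipy 1.17.1, numpy 2.4.6 and matplotlib 3.10.9.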

Additional observations from a re-analysis of the deposited data

Results flagged for a closer look

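For 12 sets of values over 4 libraries, the gap of the farthest library was compared with Dixon's critical value. Chance passes that value in about 1 of 20 independent sets. These sets shared libraries and peaks, so that rate does not apply to them jointly. The critical value was passed in 4 of the 12. Arcuate library 4 stood apart with 2 clock regions against 3 in each of the others, and with 1 clock gene against 3. These counts take few values, so that a step of 1 region is enough to pass. At the Dbp site, AVPV library 2 stood apart with a fold enrichment of 4.05 against 5.96 to 6.26 and with a −log10 q of 2.85 against 8.42 to 9.22. Its percentile of 6.83 did not pass.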

How the results depend on the processing

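Differences are arcuate minus AVPV. The difference in clock regions per library (-1.25), in their share of regions (-0.0618 percentage points) and in clock genes (-1) moved by less than the spread between libraries under every alternative with 1 exception: with peaks above a fold of 5 the share was -0.0181, and the difference in regions was then 0. Leaving out a library gave -1.92 to -0.583 regions, -0.0794 to -0.0473 percentage points and -1.5 to -0.5 genes. Pairing libraries by number in a replicate block gave the same means (-1.25, -0.0618 and -1), and an exact sign-flip p = 0.125 at the Dbp site, the smallest that 4 pairs allow. The deviations of same-numbered libraries over 1089 regions correlated at 0.0493, -0.00563, 0.00711 and -0.213. Those of differently numbered libraries correlated at -0.220 to 0.239. The labels do not say whether equal numbers mark a shared animal or pool. These correlations cannot decide it, since they compare ranks alone. Sites in the arcuate only, AVPV only and both (0, 1 and 3) became 0, 1 and 2 with a window of 20 kb. That window held 8 clock regions in 5 genes. The site counts became 0, 2 and 5 with 100 kb and 1, 1 and 2 above a fold of 5. They became 1, 6 and 3 with at least 1 library, 2, 1 and 1 with at least 3, and 1, 1 and 0 with all 4. Without single libraries they ranged from 0 to 2, stayed at 1 and ranged from 1 to 3. The lowest count of sites in both and the highest in the arcuate only were found without AVPV library 4, while leaving out AVPV library 1 or 2 gave 1 arcuate-only site. Predicted transcripts changed none of these values. No clock region had peaks in all 8 libraries, so the alternatives of that comparison gave no value. At single regions no alternative brought an adjusted p past 0.05. With 4 against 4 libraries that would need most regions at the smallest possible p, so it cannot judge a single region.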
